A study of Homo sapiens with 20 samples.

Results

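KLF4, KLF5, KLF6 and KLF7 were followed through the H3K27ac peaks of G401, a human rhabdoid tumour cell line in which both copies of SMARCB1 are lost. Each gene was given a window of the hg19 genome: chromosome 9 from 110.15 to 110.35 Mb for KLF4, chromosome 13 from 73.55 to 73.95 Mb for KLF5, chromosome 10 from 3.7 to 3.95 Mb for KLF6, and chromosome 2 from 207.9 to 208.15 Mb for KLF7. The windows held 201 of the 458811 peaks of 4 libraries, which fell into 75 of 167933 merged regions. The KLF7 window was chosen by its H3K27ac, since it holds a region with peaks under GFP induction only, and the other members were chosen with H3K27ac results of the same contrast known. Differences between the groups are therefore given as descriptions, with no test. The genome-wide shares of regions or tiles printed beside them come from the same contrast, and nothing is read from them about the members.

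All libraries came from the same SMARCB1(-/-) line, in which doxycycline switched on either GFP, the control, or SMARCB1, a core subunit of SWI/SNF, a family of complexes that remodel chromatin. Each of these conditions had 2 H3K27ac libraries, made from enzymatically cut chromatin with a rabbit monoclonal antibody. The series text names MNase as the enzyme and gives 2 samples per condition. The labels give neither the dose nor the length of induction, nor whether the induced cells were a clone, nor whether replicates were separate cultures, so the spread between replicates may be technical. The H3K4me3, H3K4me1, SMARCA4 and input samples were not analysed here. Of 20 samples, 4 were therefore used. The comparison asks how acetylation around these genes differs once the missing subunit is present.

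Krüppel-like factors are zinc finger transcription factors that bind GC-rich and CACCC sequences in promoters and enhancers, and members of the family can act on shared targets. KLF4 is a factor of epithelial differentiation and one of the classical reprogramming factors. KLF5 is known from dividing epithelial cells, KLF6 is widely expressed and is induced early after many stimuli, and KLF7 is known from developing neurons. H3K27ac, the acetylation of lysine 27 of histone H3, marks active promoters and enhancers, and a long stretch of it around a gene is often read as an enhancer cluster.

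The promoters of the members are shown because the genes share GC-rich start regions while their windows differed in H3K27ac: with SMARCB1, peaks were absent from the KLF7 window and present in the other 3. The sequences are the RefSeq promoters of GRCh38.p14, each the 250 bases before a start site, 5′ to 3′ on the gene's own strand, which is minus for KLF4, KLF6 and KLF7 and plus for KLF5. All 4 members were matched. Capitals mark the GC box GGGCGG on either strand, with overlapping matches counted singly. Of the 4 RefSeq start sites of KLF7 and the 2 of KLF5, the most GC-rich one is printed.
KLF7: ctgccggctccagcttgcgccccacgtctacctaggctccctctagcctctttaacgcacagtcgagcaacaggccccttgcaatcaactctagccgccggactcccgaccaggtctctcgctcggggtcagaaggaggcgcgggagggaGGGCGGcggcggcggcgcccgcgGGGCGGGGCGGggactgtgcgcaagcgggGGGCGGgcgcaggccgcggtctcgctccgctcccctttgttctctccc
KLF6: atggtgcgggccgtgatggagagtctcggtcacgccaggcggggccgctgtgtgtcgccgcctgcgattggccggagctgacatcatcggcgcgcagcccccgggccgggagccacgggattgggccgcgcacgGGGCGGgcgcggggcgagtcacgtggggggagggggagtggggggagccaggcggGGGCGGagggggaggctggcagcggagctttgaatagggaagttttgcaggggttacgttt
KLF4: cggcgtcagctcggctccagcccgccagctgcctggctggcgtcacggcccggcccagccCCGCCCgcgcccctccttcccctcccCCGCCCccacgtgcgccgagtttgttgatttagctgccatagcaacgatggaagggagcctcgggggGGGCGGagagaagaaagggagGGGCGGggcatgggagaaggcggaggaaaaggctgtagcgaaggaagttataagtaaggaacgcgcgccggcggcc
KLF5: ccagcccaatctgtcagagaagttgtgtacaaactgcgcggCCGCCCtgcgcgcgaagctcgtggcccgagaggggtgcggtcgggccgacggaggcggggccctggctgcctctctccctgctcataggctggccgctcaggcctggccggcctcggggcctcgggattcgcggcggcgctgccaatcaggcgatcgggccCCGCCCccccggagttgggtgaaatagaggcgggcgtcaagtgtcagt

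The printed promoters held 4 GC boxes in KLF7, 2 in KLF6, 4 in KLF4 and 2 in KLF5. Their GC content was 72% in KLF7, 72.4% in KLF6, 69.2% in KLF4 and 70.8% in KLF5, against a median of 58% over all 35116 RefSeq promoter stretches of the same length. In the most GC-rich stretch of each of 18 other KLF and SP genes, chosen as for the members, the median was 70.4%, within the range of the members. Over all 35116 stretches, 42.6% had a GC box. The other 3 start sites of KLF7 had a GC content from 41.6% to 58% and no GC box, and neither had the other start site of KLF5, at 40.8%. The CACCC box CACACCC was searched on both strands, was in no stretch of the 4 members, and was in 6.63% of all stretches. Among other KLF and SP genes, 18 of 23 were matched (KLF3, KLF10, SP6, SP7 and SP9 were not), and 14 of the 18 had a GC box in their most GC-rich stretch. The peaks are in hg19, so these sequences were not placed on the peak coordinates.

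The 4 libraries differed in depth and in the length of their peak lists. The files give no read totals, so the number of background fragments under a summit, solved from each peak's fold and p-value, stands in for depth. It was 1.82 and 3.74 fragments in GFP replicates 1 and 2, and 4.79 (before a scaling by 0.855) and 3.89 in SMARCB1 replicates 1 and 2. The lists held from 79555 to 145533 peaks, and covered 1.30 times as much sequence with SMARCB1 as with GFP. Fold enrichment is the authors' value for a summit over the local background of its own list. Since the lists were called separately, folds of different libraries are set side by side as descriptions.

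The H3K27ac-covered share of the windows ordered the genes differently in the 2 conditions. With GFP, peaks covered 13.8% and 12.9% of the KLF6 window in replicates 1 and 2. They covered 2.32% and 2.60% of the KLF7 window, 0.408% and 0.237% of the KLF4 window, and none of the KLF5 window. These ranges did not touch between neighbours in that order. With SMARCB1, peaks covered 36.2% and 34% of the KLF6 window, 1.35% and 0.777% of the KLF5 window, 0.540% and 0.278% of the KLF4 window, and none of the KLF7 window. The SMARCB1 ranges did not touch either. KLF7 thus stood second with GFP and last with SMARCB1, while KLF5 stood last with GFP and second with SMARCB1. The place of KLF5 with SMARCB1 depends on the window, since its peaks lie near the lower end. In the middle of its window the SMARCB1 minus GFP difference in covered length fell from 4.25 to 0.110 kb.

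**Figure D1:**
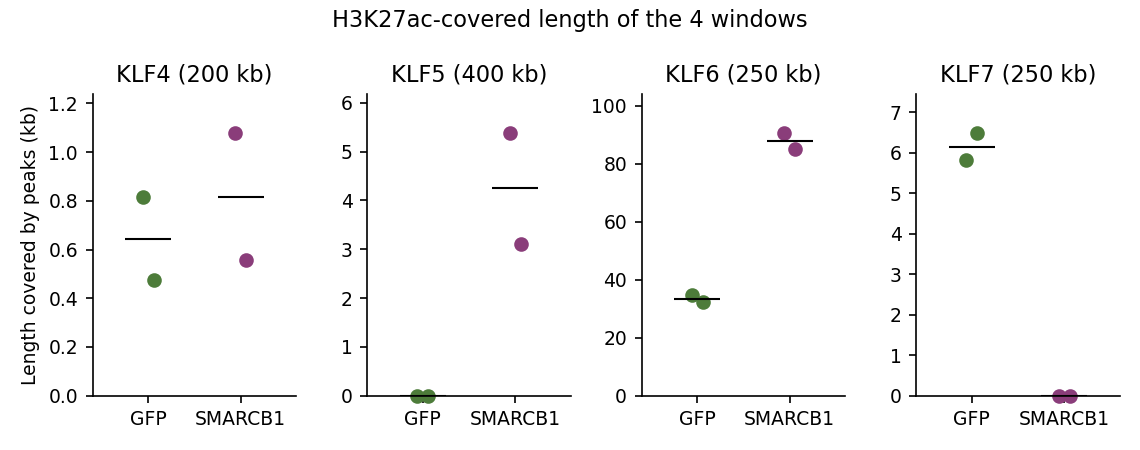
Length covered by H3K27ac peaks in each window (y axis, kb, a separate scale per gene) by induced gene (x axis); points are libraries and lines are means. KLF6 lies between 32.4 and 34.5 kb with GFP and between 85.0 and 90.6 kb with SMARCB1, KLF7 and KLF5 each have a condition at 0, and KLF4 overlaps.

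KLF7 had H3K27ac peaks with GFP and none with SMARCB1. In GFP replicate 1 its window held 4 peaks covering 5.81 kb, and in GFP replicate 2 it held 6 peaks covering 6.49 kb. In both SMARCB1 libraries it held 0 peaks. The mean covered length was 6.15 ± 0.481 kb with GFP and 0 kb with SMARCB1 (SD, n = 2). The groups did not overlap. As background, of 2765 tiles of 250 kb with at least 5 kb covered in both GFP libraries, 0.542% had no peak in either SMARCB1 library, and of 5051 tiles with any peak in both GFP libraries, 2% had none. Both SMARCB1 covered lengths lay below both GFP lengths in 18.1% of 5933 tiles.

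The KLF7 acetylation consisted of a pair of strong peaks with a short gap between them. The stronger one ran from 208031007 to 208032745 on chromosome 2 in GFP replicate 1, with a fold enrichment of 30.4. In GFP replicate 2 it ran from 208031068 to 208033014, with a fold enrichment of 17.7. Of the peaks of GFP replicate 1, 0.423% had a higher fold, and of those of replicate 2, 0.623%. The KLF7 window was chosen by this region, so these shares are descriptions. The summits of this peak lay 140 bp apart in the 2 replicates and held 85 and 83 fragments over a background of 1.83 and 3.74. Its partner on the lower-coordinate side ran from 208027463 to 208030786 in replicate 1 and from 208027588 to 208030797 in replicate 2, with a fold enrichment of 21.6 and 14.3 and summits 36 bp apart. The unmarked gap between the partners was 220 bp in replicate 1 and 270 bp in replicate 2.

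The stronger KLF7 peak was missing from the stitched-region table of its own library in both replicates, while its partner was listed. Per their headers, these tables hold regions away from transcription start sites, and 20.3% of all peaks of GFP replicate 1 and 22.7% of those of replicate 2 were missing from them. No annotation of hg19 was used here, so which start site lies at the stronger peak was not tested. A weak GFP replicate 1 peak at 207998380 to 207998680, with a fold enrichment of 3.70, and one of 3.80 at 208033182 to 208033381 in replicate 2 were missing as well. Minor peaks completed the KLF7 pattern. One from 208026216 to 208026661 in replicate 1 and from 208026203 to 208026743 in replicate 2, with a fold enrichment of 4.25 and 3.59, was shared by the GFP libraries. The peaks at 207998380 in replicate 1 and at 208018099 in replicate 2 each lay in a region of 1 library.

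The absence of KLF7 peaks with SMARCB1 was set against what those lists could register. The weakest listed peaks at the genome-wide background held 13 fragments in SMARCB1 replicate 1 and 11 in replicate 2, a fold enrichment of 2.38 and 2.46. The paired KLF7 summits held 60 to 85 fragments in the GFP libraries. A summit that stayed under the listing limit, or one removed by the authors' filter, whose rule is not given in the sources used here, would not appear, so the lists show no peak and not an acetylation of 0. Around the lost block, from 208026203 to 208033381, the nearest SMARCB1 peaks were 395 kb below in both libraries, and 169 kb and 360 kb above in replicates 1 and 2. The stretch without peaks thus measured 571 kb and 763 kb. In GFP replicates 1 and 2 the peaks flanking the block lay 200 kb and 180 kb apart. The 500 kb above the window, on the side of the coding neighbour CREB1, had 31.5 and 32.7 kb covered with GFP, and 43.3 and 35.3 kb with SMARCB1. Total covered length there was not lower with SMARCB1, in lists that covered 1.30 times as much sequence genome-wide, but single peaks differed. The first peak above the block had a fold of 21.6 and 13.5 in GFP replicates 1 and 2, at 165 kb in both. In SMARCB1 replicate 1 the first peak above had a fold of 3.05 at 169 kb, and in replicate 2 one of 8.80 at 360 kb. The 500 kb below the window held only 1 or 2 peaks per library, too few to compare the sides.

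**Figure D2:**
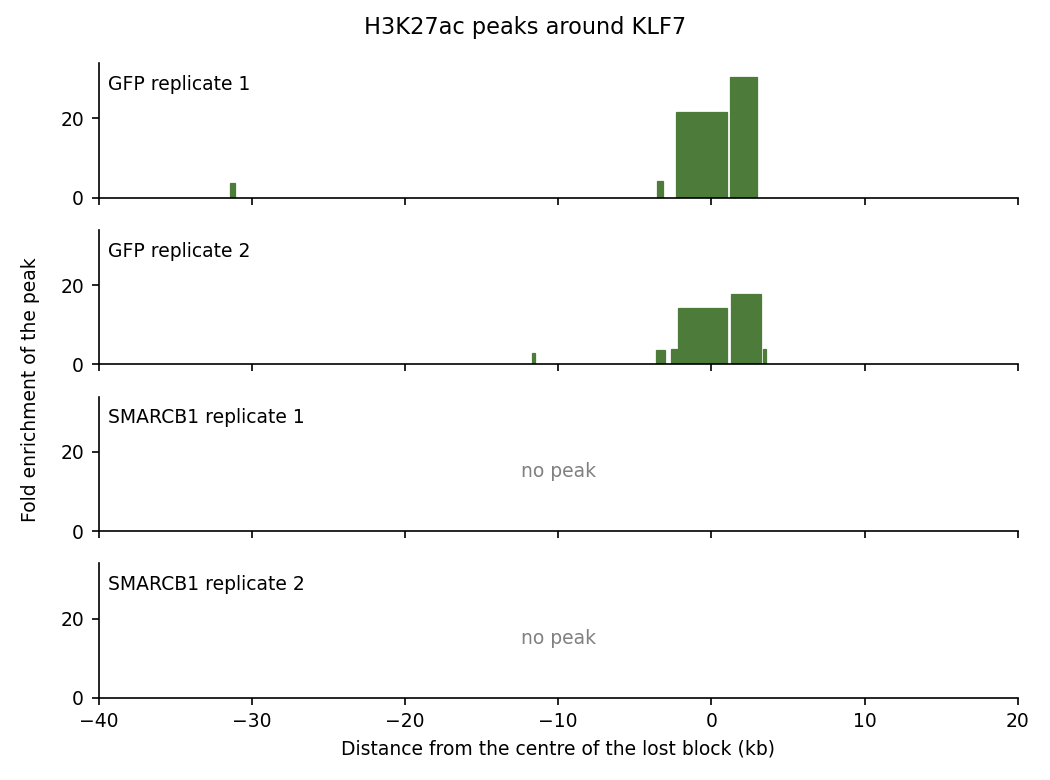
H3K27ac peaks around KLF7 in each library; the x axis is the distance from the centre of the lost block in kb (negative values are lower coordinates), each bar spans a peak and its height is the fold enrichment at the summit. The pair of tall peaks, from 14.3 to 30.4 fold, appears under GFP and is missing from the SMARCB1 libraries.

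A region is called lost where both GFP lists have a peak and neither SMARCB1 list does. Ranked by the lower of their GFP folds, 1 of the 6624 lost regions stood above the strongest KLF7 region. The KLF7 window was chosen by that same region, so its rank is given as a description and nothing is read from it. The median fold of lost regions was 4.60 in GFP replicate 1 and 3.80 in replicate 2. Outside the windows and chromosome 8, the 3 lost regions whose log2 folds in the 2 GFP libraries lay nearest to those of KLF7 were on chromosome 3 from 14393793 to 14417304, on chromosome 10 from 73699303 to 73703462 and on chromosome 3 from 14380257 to 14393730. Their folds were 24.8 and 13.9, 22.1 and 14.6, and 20.9 and 12.9 in GFP replicates 1 and 2, at a distance of 0.456, 0.541 and 0.711 log2 units from KLF7. The regions on chromosome 3 lie side by side, so the 3 regions are not 3 separate places. Their nearest SMARCB1 peaks were 16.7, 12.6 and 14.2 kb away. From the lost KLF7 block the nearest was 169 kb away, above it, in SMARCB1 replicate 1. On that side the next GFP peak was also 165 kb away in both replicates, so the place is sparse in peaks with GFP too. No hg19 annotation was used here, so the genes at these places are not named.

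KLF6 had a longer acetylated stretch with SMARCB1, around a block whose highest fold overlapped between the groups. Peaks covered 34.5 and 32.4 kb of its window in GFP replicates 1 and 2, and 90.6 and 85.0 kb in SMARCB1 replicates 1 and 2. The means were 33.5 ± 1.54 kb with GFP and 87.8 ± 3.95 kb with SMARCB1 (SD, n = 2), a ratio of 2.63. The groups did not overlap, and the difference of 54.4 kb was larger than the SD of either group. As background, both SMARCB1 lengths lay above both GFP lengths in 53.9% of the 250 kb tiles that had a peak in any library. The number of KLF6 peaks was 29 and 33 with GFP, and 47 and 61 with SMARCB1.

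Joining peaks within 1 kb gave 4 blocks of the KLF6 window with a peak in every library. Block 1 lay on chromosome 10 from 3815700 to 3831639, block 2 from 3844379 to 3879889, block 3 from 3889898 to 3900943 and block 4 from 3923489 to 3951696, which runs past the end of the window. Block 1 held the strongest KLF6 peaks of both GFP libraries, a pair of peaks with a gap of 121 and 280 bp between them in GFP replicates 1 and 2 and of 248 and 282 bp in SMARCB1 replicates 1 and 2. The pair resembled that of KLF7 in layout, with summits 972 to 1606 bp apart in KLF6 and 778 and 882 bp apart in KLF7. In both GFP libraries the peak of the KLF6 pair at higher coordinates was missing from the stitched-region table, as the stronger KLF7 peak was. In both SMARCB1 libraries the matching KLF6 peak lay inside a stitched region, so the tables differ on this place. The summit positions of the pair differed by at most 378 bp over the 4 libraries.

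The highest fold of block 1 was 25.3 and 14.4 with GFP, and 20.4 and 20.1 with SMARCB1. The groups overlapped, with means of 19.9 ± 7.72 and 20.2 ± 0.245 (SD, n = 2). Blocks 2, 3 and 4 differed from it. In block 2 the highest fold was 9.85 and 7.14 with GFP, and 21.0 and 16.8 with SMARCB1. In block 3 it was 7.93 and 6.03 with GFP, and 16.6 and 15.6 with SMARCB1. In block 4 it was 9.38 and 5.24 with GFP, and 19.8 and 18.0 with SMARCB1. In these 3 blocks both SMARCB1 folds lay above both GFP folds, by a ratio of means from 2.22 in block 2 to 2.59 in block 4. The local background at these summits was 1.88 to 2.91 fragments in GFP replicate 1, against 1.82 genome-wide. In GFP replicate 2 it was 3.76 to 5.11, against 3.74. At the SMARCB1 summits it stood at the genome-wide 4.09 (after scaling) and 3.89. How much of the ratio comes from these backgrounds was not tested. Over 15239 joined regions present in every library, both SMARCB1 folds lay above both GFP folds in 9.15% and below both in 42.7%.

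Each library's folds were also divided by that of its own block 1. Block 1 was taken as the divisor because it had the highest fold in GFP replicate 1. Ratios below 1 in that library therefore follow from the choice, which lowers the GFP ratios. Relative to block 1, block 2 stood at 0.389 and 0.495 with GFP, and at 1.03 and 0.837 with SMARCB1. Block 3 stood at 0.313 and 0.419 with GFP, and at 0.816 and 0.776 with SMARCB1. Block 4 stood at 0.370 and 0.364 with GFP, and at 0.972 and 0.898 with SMARCB1. Blocks 2 to 4 thus stood at 0.776 to 1.03 of block 1 with SMARCB1, and at no more than 0.495 of it with GFP. The relative fold was higher in both SMARCB1 libraries than in both GFP libraries in 7.74% of the 15239 regions.

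Peaks also covered more of each block with SMARCB1. All outer borders of the blocks are ends of SMARCB1 peaks, so a share of a block under peaks favours SMARCB1 by construction, and the covered lengths are given here. In block 1 they covered 10.2 and 9.98 kb with GFP, and 15.6 and 14.2 kb with SMARCB1. In block 2 they covered 13.9 and 13.4 kb with GFP, and 32.7 and 31.3 kb with SMARCB1. In block 3 they covered 3.82 and 3.60 kb with GFP, and 8.36 and 8.95 kb with SMARCB1. Coverage differed by the largest ratio in block 4. There the lengths were 6.75 and 5.42 kb with GFP, and 24.5 and 24.4 kb with SMARCB1, a ratio of means of 4.03. In all 4 blocks both SMARCB1 lengths lay above both GFP lengths, as they did in 35.3% of the joined regions present in every library. The widest single KLF6 peak was 6.43 and 6.40 kb long with GFP, and 12.4 and 12 kb long with SMARCB1.

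**Figure D3:**
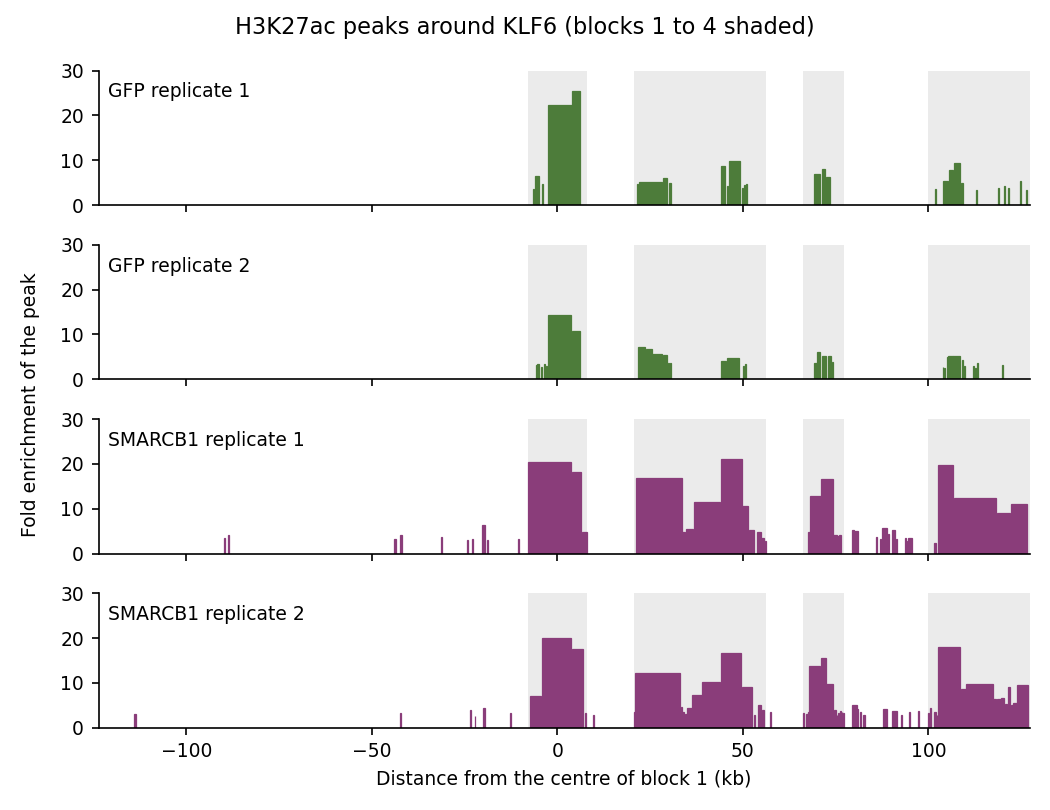
H3K27ac peaks around KLF6 in each library; the x axis is the distance from the centre of block 1 in kb, each bar spans a peak with its summit fold enrichment as height, and blocks 1 to 4 are shaded. Block 1 stands at 14.4 to 25.3 fold in every library, whereas the other blocks reach at most 9.85 fold with GFP and 15.6 to 21.0 fold with SMARCB1.

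**Figure D4:**
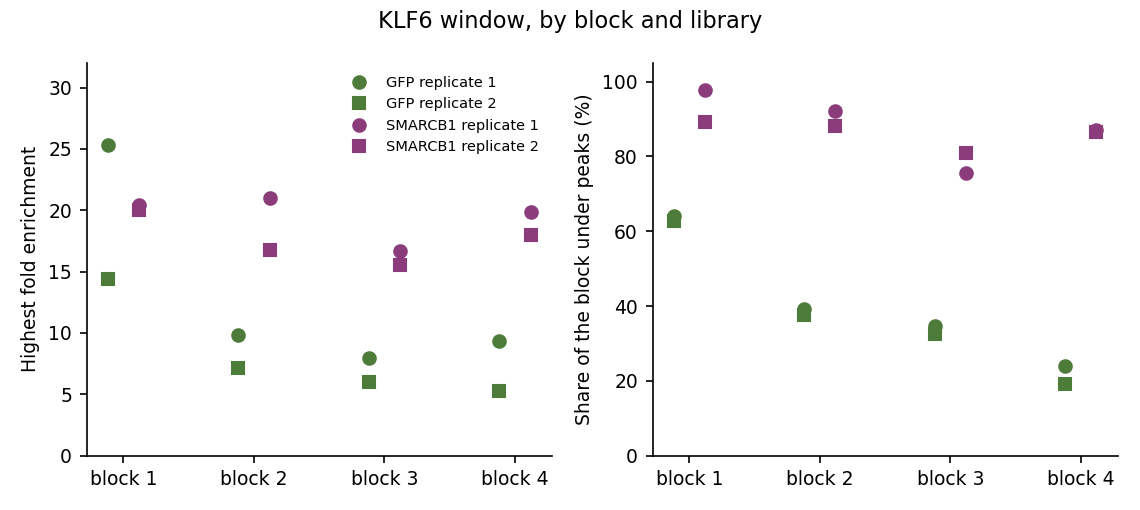
Highest fold enrichment (y axis, left panel) and share of the block covered by peaks in percent (y axis, right panel) for each KLF6 block and library; circles are replicate 1 and squares replicate 2. The groups overlap only in the fold of block 1, and SMARCB1 covers 75.7% to 97.9% of each block against 19.2% to 64.1% with GFP, a share that favours SMARCB1 because its peaks set the block borders.

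Some KLF6 regions, within, between and below the blocks, had no GFP peak. Of the 55 merged KLF6 regions, 12 were gained, which means that both SMARCB1 lists and neither GFP list had a peak there. No KLF6 region was lost. Over the windows together 15 of 75 regions were gained and 3 were lost, against 17.5% gained and 3.94% lost of all merged regions. The strongest gained KLF6 region, from 3858116 to 3867543, was 9.43 kb wide, and its folds with SMARCB1 were 11.6 and 10.2. It lay inside block 2, between peaks that GFP also had. The next ones ran from 3903048 to 3904363 (5.23 and 5.12 fold), from 3877605 to 3878512 (4.90 and 5.12), from 3803251 to 3804098 (6.41 and 4.50) and from 3904427 to 3904805 (5.06 and 4.30). When peaks within 1 kb were joined, 6 joined KLF6 regions were gained, and the shares of joined regions were 18.7% gained and 3.2% lost genome-wide.

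At KLF6 the authors' super-enhancer marks stood in the SMARCB1 tables alone. Both SMARCB1 tables marked 1 KLF6 region, from 3844882 to 3999118 (154 kb) in replicate 1 and from 3800136 to 3951696 (152 kb) in replicate 2. The mark of replicate 1 begins above block 1, and that of replicate 2 includes it. The 5 stitched KLF6 regions of each GFP table, from 4.44 to 24.7 kb long, carried no mark. The SMARCB1 tables marked more regions throughout, 2003 of 36063 (5.55%) in replicate 1 and 1521 of 30305 (5.02%) in replicate 2, against 910 of 26982 (3.37%) and 649 of 19377 (3.35%) in GFP replicates 1 and 2. Stitched regions with the same ID share 1 signal value in these tables, and the marked KLF6 regions shared theirs with others, 11 and 9 regions having the ID in SMARCB1 replicates 1 and 2. The marks are thus the authors' deposited calls and no measurement of KLF6 alone. The KLF4, KLF5 and KLF7 windows held 0 to 4 stitched regions per table, with no mark, and at these table-wide shares nothing is read from that.

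The KLF5 window had peaks with SMARCB1 and none with GFP. The window held 10 and 5 peaks in SMARCB1 replicates 1 and 2, which covered 5.38 and 3.11 kb, and 0 peaks in both GFP libraries. The mean was 4.25 ± 1.61 kb with SMARCB1 (SD, n = 2). Of 4018 tiles of 400 kb with a peak in both SMARCB1 libraries, 7.47% had none in either GFP library. All 15 KLF5 peaks were listed in the stitched-region tables, as most peaks were: 13.5% of the peaks of SMARCB1 replicate 1 and 15% of those of replicate 2 were missing. They sat in the lower-coordinate part of the window, on the side of the coding neighbour PIBF1, and to which gene they belong was not tested. No library had a peak between 73593927 and 73664189. The start sites of KLF5 were not placed in hg19, so a gain at the gene itself is not shown.

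The KLF5 peaks were modest. The strongest gained region ran from 73556224 to 73557556 on chromosome 13, at 8.59 fold in SMARCB1 replicate 1 and 7.57 fold in replicate 2, with summits 217 bp apart. A second one from 73557908 to 73559132 had a fold enrichment of 6.57 and 5.12, and the third from 73591955 to 73592607 had 4.90 and 4.30. The single peak above them, from 73664189 to 73664407, was seen in SMARCB1 replicate 1 at a fold enrichment of 3.05. The nearest GFP peaks to the wider block, from 73555576 to 73560547, lay 198 kb below and 2551 kb above in both GFP libraries. After thinning every library to 1.82 fragments, 5 and 4 KLF5 peaks were kept in SMARCB1 replicates 1 and 2. Thinning dropped peaks without narrowing them, so their 3.57 and 2.67 kb are widths at full depth.

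KLF4 had values that overlapped between the groups. A single region on chromosome 9, from 110252194 to 110252908, had a peak in every library, 0.616 and 0.473 kb wide with GFP and 0.620 and 0.556 kb wide with SMARCB1. Its fold enrichment was 10.6 and 6.55 with GFP, and 7.92 and 7.78 with SMARCB1. The groups overlapped, with means of 8.59 ± 2.89 and 7.85 ± 0.0989 (SD, n = 2). The 4 summits lay within 147 bp, and the peak was missing from the stitched-region table of every library. The only other KLF4 peaks were one of 0.200 kb in GFP replicate 1 and one of 0.459 kb in SMARCB1 replicate 1, 68.2 kb and 50.4 kb below. Above the KLF4 region the next peak was at least 1388 kb away in every library. Covered length, 0.816 and 0.473 kb with GFP and 1.08 and 0.556 kb with SMARCB1, overlapped as well. KLF4, like KLF6, kept peaks in both conditions, but as a narrow peak with none of the surrounding blocks.

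**Figure D5:**
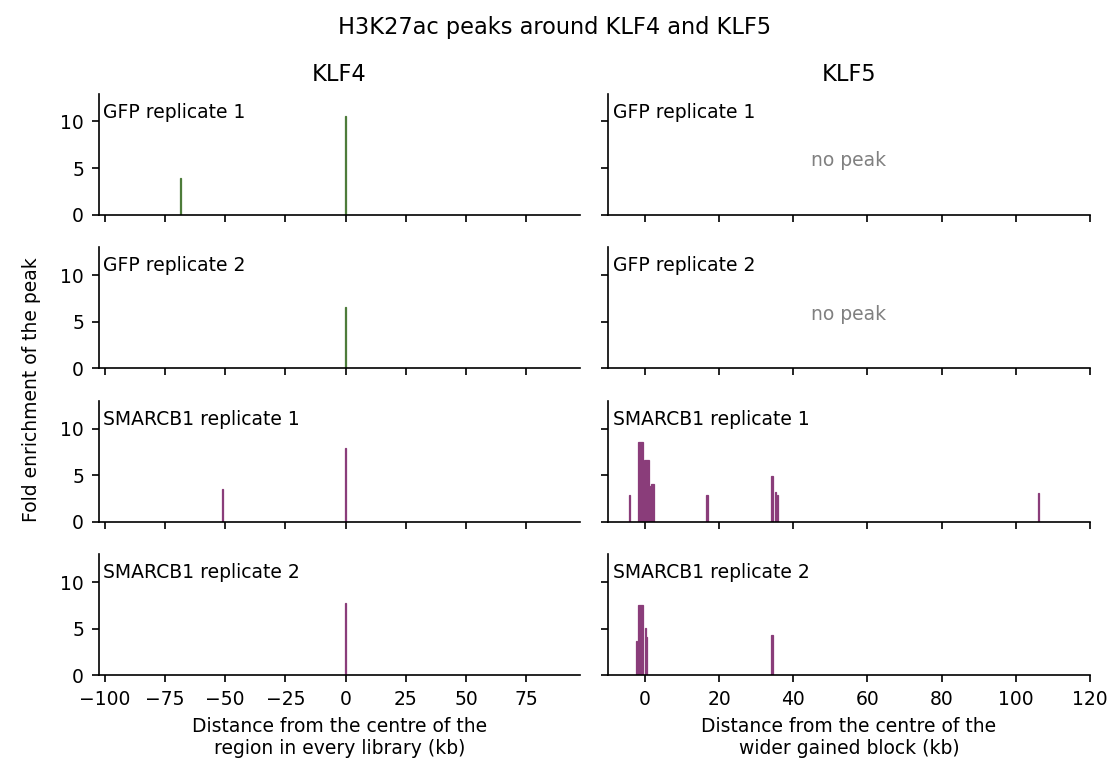
H3K27ac peaks around KLF4 (left) and KLF5 (right) in each library; x axes are distances in kb from the KLF4 region present in every library and from the wider gained KLF5 block, and bar heights are fold enrichments. KLF4 has 1 peak at 6.55 to 10.6 fold in all libraries, and the KLF5 window has peaks up to 8.59 fold with SMARCB1 only.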

How the data were processed

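H3K27ac was profiled in 4 libraries, 2 with GFP and 2 with SMARCB1 induced, grouped by the sample titles. The members and lists were chosen with earlier results of these data known. BWA 0.7.12-r1039, SAMtools and bedtools are named in the submitters' processing notes, with hg19 as the build. Peaks were called with MACS2 for each library and filtered, per the file names and labels. The version and control of MACS2 and the filter rule are not given in the sources used here. The authors deposited for each peak its fold enrichment (a ratio over background) and its -log10 p and -log10 q, and ROSE tables of stitched regions with super-enhancer marks, per the file headers. Each table was tied to the library whose list held 100% of its borders; the other lists held at most 1.01%. The signal columns of these tables, 8 in all, were not used.

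Peaks were counted where they overlapped a window, covered length was clipped to it, and peaks sharing at least 1 bp were merged. The regions named are the highest of each library and up to 5 gained and 5 lost per window, by the lower of their folds. Peaks within 1 kb were joined into blocks. The use of these blocks to describe KLF6, the division by block 1, the tiles and the 500 kb flanks were chosen after values were seen. Fragments and background were solved from the fold and Poisson p of each peak, which returned 100% of 2000 peaks per list within 0.001. Code was tested on simulated lists. No hg19 annotation was used here, so start sites of other KLF and SP genes were not placed and the cell type was not checked against marker genes. Alternatives tried: a stricter -log10 q (minimum 5), equal lists of 79555 peaks, thinning to the lowest background, the middle of each window, a reciprocal overlap of 50%, joining, and leaving out each library. Software was scipy 1.17.1, pandas 2.3.3 and numpy 2.4.6 under Python 3.11.15, and figures were drawn with matplotlib 3.10.9.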

Additional observations from a re-analysis of the deposited data

How the results depend on the processing

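Differences in covered length are SMARCB1 minus GFP. For KLF4 the difference of 0.173 kb reversed to -0.0565 kb with equal numbers of peaks and with thinned libraries, and ranged from -0.0885 to 0.435 kb without 1 library, so its direction depends on the setting. For KLF5 it was 4.25 kb, ranged from 3.11 to 5.38 kb without 1 library and fell to 0.110 kb in the middle of the window, since its peaks lie near the lower end. For KLF6 it was 54.4 kb, and it was 50.4 kb at a -log10 q of at least 5, 49.7 kb with equal numbers of peaks, 25.5 kb in the middle of the window and 51.6 to 57.2 kb without 1 library. For KLF7 it was -6.15 kb, -5.40 kb at the stricter threshold and -6.49 to -5.81 kb without 1 library. Gained regions fell from 15 to 6 in the middle of the windows and to 8 after joining, and ranged from 15 to 49 without 1 library, the most without SMARCB1 replicate 1 (46 without SMARCB1 replicate 2), where a peak in 1 library suffices. Lost regions ranged from 3 to 6 without 1 library (6 without GFP replicate 1, 5 without GFP replicate 2), were 1 after joining and 9 with a reciprocal overlap of 50%. Of those 9, 6 were KLF6 peaks that touch a SMARCB1 peak of another width, and 3 were at KLF7. No paired analysis was possible because these results come from no test into which a replicate block could enter, and the labels do not tie the numbers to shared cultures. Between libraries of the same number, the differences for replicates 1 and 2 were 0.263 and 0.083 kb in KLF4, 5.38 and 3.11 kb in KLF5, 56.1 and 52.7 kb in KLF6, and -5.81 and -6.49 kb in KLF7. Depth is unknown except through the background, and 2 libraries per group limit the precision.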

Other observations

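Covered length beyond the windows differed from gene to gene. In the 500 kb below the KLF6 window, peaks covered 1.77 and 1.54 kb in GFP replicates 1 and 2, and 17.4 and 11.2 kb in SMARCB1 replicates 1 and 2. In the 500 kb above it they covered 0.673 and 0.299 kb with GFP, and 24.2 and 21.8 kb with SMARCB1. The KLF6 surroundings thus held 1 to 3 peaks on each side with GFP, and 25 to 48 with SMARCB1.

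The 500 kb below the KLF4 window, on the side of the coding neighbour RAD23B, had 57.8 and 61.3 kb covered with GFP, and 87.4 and 72.2 kb with SMARCB1. In the 500 kb above the KLF4 and the KLF5 windows no library had a peak. Below the KLF5 window 6.58 and 7 kb were covered with GFP, and 11.4 and 10.7 kb with SMARCB1. Below the KLF7 window the lengths were 1.55 and 1.80 kb with GFP, and 0.969 and 0.801 kb with SMARCB1. These lengths are descriptions chosen after the values of the windows were seen.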
